A study of Mus musculus with 4 samples.

Results

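The 9 genes described here serve the making of haemoglobin and the maturation of red blood cells. They were chosen by name from a list of globin, haem synthesis and red cell membrane genes, and all 9 were found among the 55399 genes of the count table and among the 16393 genes tested. They comprise the adult α-globin genes Hba-a1 and Hba-a2, the adult β-globin genes Hbb-bs and Hbb-bt, Alas2, Slc4a1, Epor, Car2 and Tfrc. In 4 libraries RNA was sequenced in bulk from mouse marrow cells labelled Lsk, a name in common use for the marrow fraction rich in blood stem cells and early progenitors, which lacks lineage markers and carries Sca-1 and Kit. Of these, 2 libraries were labelled Ppm1bCKO (a conditional knockout of the serine/threonine phosphatase gene Ppm1b) and 2 were labelled Ppm1bfl/fl (Ppm1b alleles flanked by loxP sites). The strain, the age of the mice, the Cre line and the cells in which it acts are not known from the sources used here. Sex is not stated, but Y-linked counts, given below, differed between the libraries labelled Ppm1bCKO. Separate mice for the replicates are not stated either, and p-values here cover the spread between these libraries alone.

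Red cells arise in marrow from erythroid progenitors that need the hormone erythropoietin to survive. As these cells mature through the erythroblast stages they take up iron, make haem, fill with haemoglobin, a tetramer of α and β chains, and build a flexible membrane skeleton. Transcription factors that bind GATA and CACCC motifs are known to drive many of these genes, and globin transcripts persist in reticulocytes that no longer have a nucleus. In bulk RNA, fewer erythroid cells and less RNA per erythroid cell cannot be told apart.

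Total counts ran from 22393973 to 30045382 per library. Ppm1b itself stood at 84.3 and 121 CPM (a gene's counts scaled by TMM to a fixed library total) in the libraries labelled Ppm1bCKO, against 80.8 and 82.5 CPM in the Ppm1bfl/fl libraries. It was thus not lower under the knockout label, and a count summed over all exons cannot tell whether part of the gene was removed. Every direction given here therefore rests on the labels. Kit stood at 187 and 121 CPM in the Ppm1bCKO-labelled libraries, against 228 and 194 CPM in Ppm1bfl/fl. Ly6a, which encodes Sca-1, ran from 17.7 to 22.2 CPM over the 4 libraries. Ngp, a granule gene of maturing neutrophils, ran from 954 to 1102 RPKM (CPM per 1000 bases of exon), against 13.6 to 25.6 RPKM for Kit. The library labelled Ppm1bCKO replicate 2 stood apart from the others. Its 4 Y-linked genes held 2 counts in sum, against 5870 in Ppm1bCKO replicate 1 and 5984 and 6396 in the Ppm1bfl/fl libraries. All 8 B cell markers were highest in it, and they summed to 622 CPM there and 285 CPM in Ppm1bCKO replicate 1, against 185 and 191 CPM in Ppm1bfl/fl. Its counts were also skewed towards short genes.

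Haemoglobin transcripts were among the most abundant in these libraries, and their genotypes overlapped. Hbb-bs, which encodes an adult β chain, stood at 4476 and 7038 CPM in the Ppm1bCKO-labelled libraries, against 2783 and 5049 CPM in the Ppm1bfl/fl libraries. Its neighbour Hbb-bt stood at 905 and 1243 CPM in the Ppm1bCKO-labelled libraries, against 489 and 946 CPM in Ppm1bfl/fl. The order of the libraries was the same for both β genes, with Ppm1bCKO replicate 2 highest, then Ppm1bfl/fl replicate 2, Ppm1bCKO replicate 1 and Ppm1bfl/fl replicate 1. Hba-a1, an adult α-chain gene, stood at 2576 and 4604 CPM in the Ppm1bCKO-labelled libraries, against 1779 and 3001 CPM in Ppm1bfl/fl. For Hba-a2 the values were 467 and 750 CPM in the Ppm1bCKO-labelled libraries, against 390 and 518 CPM in Ppm1bfl/fl. All 4 globin genes thus shared that order of libraries, in which replicates of a genotype were not neighbours. Both libraries numbered 2 lay above both numbered 1, and the labels do not say whether these numbers pair libraries.

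The copies of each globin gene are nearly the same in sequence, so the split of reads within a pair is uncertain. In the GENCODE transcripts the coding sequences of Hba-a1 (chromosome 11, 32283511 to 32284465, plus strand, mm10) and Hba-a2 (chromosome 11, 32296489 to 32297298, plus strand) are 429 bases long and differ at 1 base, C381T from Hba-a1 to Hba-a2. Those of Hbb-bs (chromosome 7, 103826534 to 103828096, minus strand) and Hbb-bt (chromosome 7, 103812524 to 103813996, minus strand) are 444 bases long and differ at 1 base, C417T from Hbb-bs to Hbb-bt. Positions count from the A of the start codon. The stretches of 41 coding bases around each difference are shown because they are what tells the copies apart within the coding part, with the differing base in capitals.
Hba-a1: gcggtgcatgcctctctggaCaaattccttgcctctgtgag
Hba-a2: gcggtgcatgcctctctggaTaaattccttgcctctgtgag
Hbb-bs: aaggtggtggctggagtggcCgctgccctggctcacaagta
Hbb-bt: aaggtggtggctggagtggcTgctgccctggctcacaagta
Of all windows of 50 bases in the main Hba-a2 transcript, 86.9% occur unchanged in that of Hba-a1, and of those in Hbb-bt 58.3% occur in that of Hbb-bs. When each pair was summed into a single gene before testing, the log2 fold change was 0.56 ± 0.33 for α-globin and 0.56 ± 0.34 for β-globin (edgeR adjusted p = 0.717 for both).

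No globin gene passed the test between genotypes. The log2 fold change, Ppm1bCKO over Ppm1bfl/fl, was 0.56 ± 0.34 for Hbb-bs and 0.58 ± 0.31 for Hbb-bt (SE; edgeR quasi-likelihood test, Benjamini-Hochberg adjusted p = 0.717 for both). For Hba-a1 it was 0.59 ± 0.34 and for Hba-a2 0.42 ± 0.26 (edgeR adjusted p = 0.717 for both). The fold of Hbb-bs between genotypes, 1.47, was smaller than its fold between replicates, 1.57 within Ppm1bCKO and 1.81 within Ppm1bfl/fl, and Hba-a1 was alike in this. For Hbb-bt the fold between genotypes, 1.497, lay between its replicate folds of 1.37 within Ppm1bCKO and 1.94 within Ppm1bfl/fl. That of Hba-a2, 1.340, likewise lay between 1.61 within Ppm1bCKO and 1.33 within Ppm1bfl/fl. The 95% interval for Hbb-bs ran from -0.22 to 1.33 on the log2 scale, so neither a small deficit nor a difference of more than 2 times is outside it. Without Ppm1bCKO replicate 2 the log2 fold changes were 0.19 for Hbb-bs, 0.33 for Hbb-bt, 0.11 for Hba-a1 and 0.039 for Hba-a2.

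**Figure D1:**
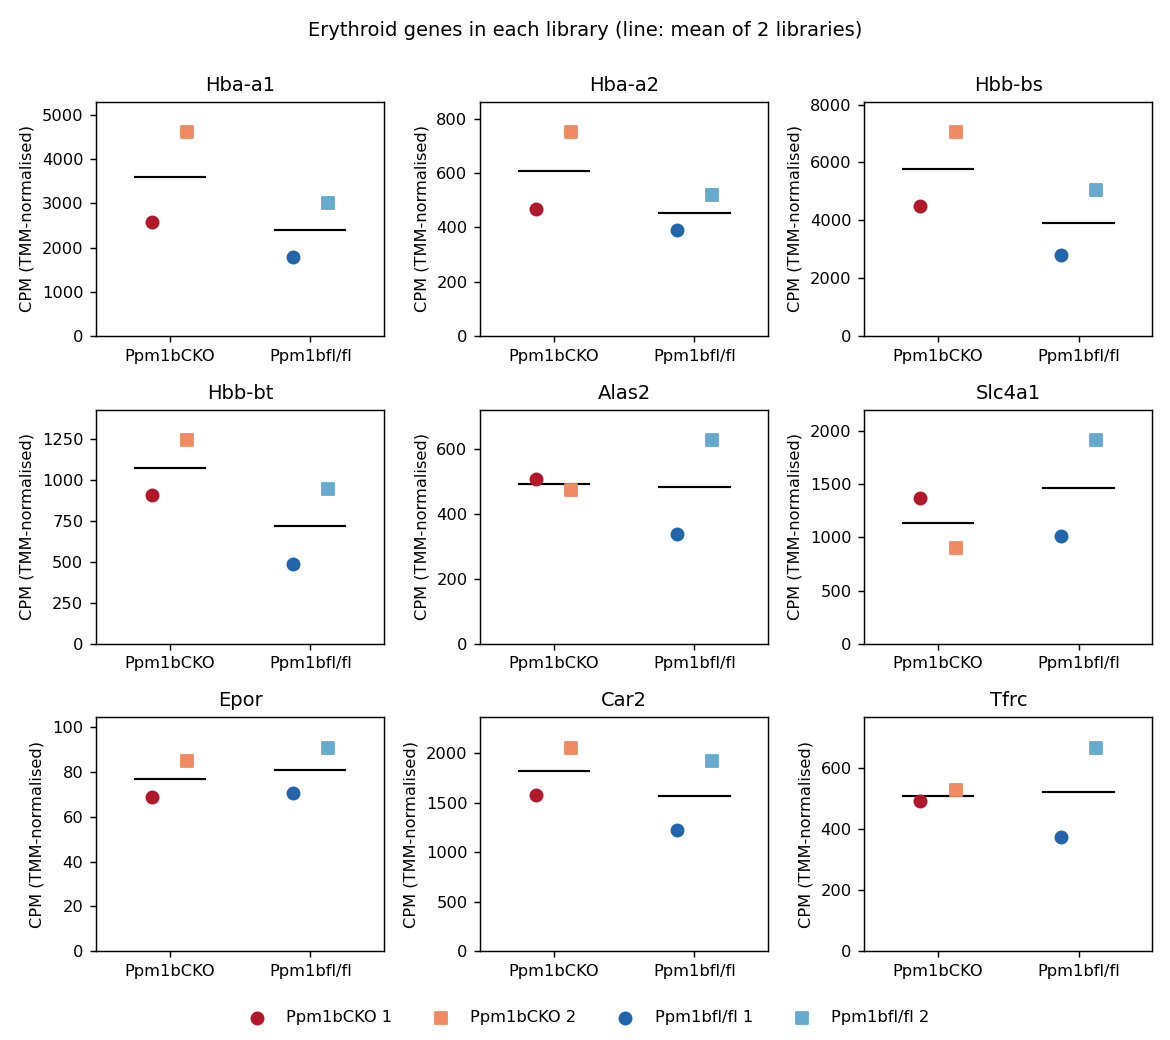
Each panel shows the TMM-normalised CPM of a gene (vertical axis from 0) in the libraries labelled Ppm1bCKO (red, left) and Ppm1bfl/fl (blue, right), circles for replicate 1, squares for replicate 2 and lines for means. The genotypes overlap in every panel, and the 4 globin genes and Car2 share an order of libraries that Alas2 and Slc4a1 do not follow.

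Adult globin took 0.855% and 1.30% of all counts in the libraries labelled Ppm1bCKO, against 0.557% and 0.955% in Ppm1bfl/fl. The means were 1.08% ± 0.32 and 0.756% ± 0.282 (SD, n = 2 each; two-sided exact permutation test p = 0.667, where 2 against 2 libraries cannot go below 0.333). The widest 95% Wilson interval of these shares, 1.298% to 1.306% in Ppm1bCKO replicate 2, was far narrower than the distance between replicates, but it covers counting error only. The balance of the chains moved less than their level. Per length of gene, the ratio of α-globin to β-globin was 0.544 and 0.621 in the libraries labelled Ppm1bCKO, against 0.642 and 0.565 in Ppm1bfl/fl, and its highest value was 1.18 times its lowest. The genotypes overlapped in it. The treatment of reads that match both copies of a pair is not stated. If such reads were dropped, these shares are too low and the loss may differ between the chains. Of the windows described above, 67.5% of Hba-a1 and 86.9% of Hba-a2 occurred in the other copy. For Hbb-bs and Hbb-bt this was 65.8% and 58.3%. The size of the shares and of the ratio is therefore uncertain.

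Other globin genes were scarce. The θ-globin genes Hbq1b and Hbq1a were the only members of the wider globin list that could be tested. Hbq1b stood at 8.58 and 10.8 CPM in the Ppm1bCKO-labelled libraries, against 8.004 and 15.1 CPM in Ppm1bfl/fl (log2 fold change -0.25 ± 0.32, edgeR adjusted p = 0.814), and Hbq1a at 0.704 and 0.885 CPM, against 0.564 and 1.59 CPM (-0.45 ± 0.57, edgeR adjusted p = 0.816). The embryonic genes Hbb-y, Hbb-bh1 and Hba-x and the related gene Hbb-bh2 held from 0 to 11 counts in a library, too few to test. A count of 0, as Hbb-bh2 had in both libraries labelled Ppm1bCKO, allows up to 3 counts, or 0.126 to 0.132 CPM there. Hbb-b1, Hbb-b2 and Ahsp, the globin chaperone gene, matched no row of the count table by these symbols, so they were not analysed here.

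The promoters of Hbb-bs, Hbb-bt, Hba-a1 and Alas2 are shown for their sequence motifs alone. Any link between these motifs and the order of the libraries was not tested. The 110 bases before the RefSeq start (GRCm38.p6) are printed with capitals for 4 motifs on either strand, of which none contains another. These are TATAA (the core of the TATA box), CCAAT (the CCAAT box), CACCC (bound by KLF factors) and GATAA (bound by GATA factors). Entries were matched by symbol for 7 of the 9 genes, all but Slc4a1 and Car2.
Hbb-bs, chr7:103827929-103828038, minus strand: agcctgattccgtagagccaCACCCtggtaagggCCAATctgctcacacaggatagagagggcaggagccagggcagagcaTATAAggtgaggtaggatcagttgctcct
Hbb-bt, chr7:103813924-103814033, minus strand: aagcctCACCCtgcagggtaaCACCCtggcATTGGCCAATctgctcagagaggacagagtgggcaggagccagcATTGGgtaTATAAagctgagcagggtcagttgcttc
Hba-a1, chr11:32283562-32283671, plus strand: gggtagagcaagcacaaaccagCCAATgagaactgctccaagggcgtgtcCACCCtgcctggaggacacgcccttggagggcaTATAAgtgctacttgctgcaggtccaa
Alas2, chrX:150547307-150547416, plus strand: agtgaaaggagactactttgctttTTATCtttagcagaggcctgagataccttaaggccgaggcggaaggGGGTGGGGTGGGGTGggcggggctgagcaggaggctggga
Within the wider window from 250 bases before to 50 bases after the start, all 4 adult globin promoters held each of the 4 motifs. TATAA began 27 to 30 bases before the start in each of them. In that window 24.9% of 32851 promoters held TATAA, 37.4% held CCAAT, 57.5% held CACCC and 25.4% held GATAA, and 1.51% held all of them. The Alas2 window held every motif but CCAAT, and its TATAA matches began 207 and 208 bases before the start. The Hba-a1 and Hba-a2 windows were identical over 297 bases once shifted by 3, so they add no separate evidence. A match is a run of letters, not a binding site.

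Alas2 and Slc4a1 did not follow the globin genes. Alas2 (chromosome X, 150547375 to 150570638, plus strand) encodes the erythroid form of the enzyme that starts haem synthesis. It stood at 508 and 474 CPM in the Ppm1bCKO-labelled libraries, against 339 and 628 CPM in Ppm1bfl/fl (log2 fold change 0.02 ± 0.27, edgeR adjusted p = 0.984). The Ppm1bfl/fl libraries enclosed both others, and Ppm1bCKO replicate 2, the highest for globin, lay below Ppm1bCKO replicate 1. Slc4a1 (chromosome 11, 102348824 to 102366203, minus strand) encodes band 3, the anion exchanger that anchors the red cell membrane to its skeleton. It stood at 1367 and 897 CPM in the Ppm1bCKO-labelled libraries, against 1017 and 1917 CPM in Ppm1bfl/fl (log2 fold change -0.37 ± 0.33, edgeR adjusted p = 0.750). For this gene Ppm1bCKO replicate 2 was the lowest of the 4 libraries.

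Relative to Alas2 and Slc4a1, globin was highest in Ppm1bCKO replicate 2. Per length, summed adult globin was 52.0 and 89.8 times Alas2 in the libraries labelled Ppm1bCKO, against 50.3 and 47.4 times in Ppm1bfl/fl. Relative to Slc4a1 it was 39.3 and 96.7 times in the libraries labelled Ppm1bCKO, against 34.1 and 31.6 times in Ppm1bfl/fl. In both ratios Ppm1bCKO replicate 2 was farthest from the others. Relative to Car2 the libraries lay closer together, with globin at 16.9 and 20.9 times Car2 in the libraries labelled Ppm1bCKO, against 14.1 and 15.6 times in Ppm1bfl/fl. In each of these ratios both Ppm1bCKO-labelled libraries lay above both Ppm1bfl/fl libraries. Relative to Alas2, Ppm1bCKO replicate 1 did so narrowly, at 52.0 against 50.3 times. A genotype difference in the ratios was not tested. The size of these globin ratios depends on how reads shared by globin copies were treated, which is not stated. Alas2 relative to Alas1, the form used in other cells, was 7.86 and 7.90 times in the libraries labelled Ppm1bCKO, against 5.20 and 10.5 times in Ppm1bfl/fl.

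That library also differed from the others by gene length over the whole table. Among 753 tested genes with up to 1000 exonic bases that averaged 1 or more in log2 CPM, the median deviation from a gene's mean over the 4 libraries in log2 units was 0.34 in Ppm1bCKO replicate 2 and -0.12 in Ppm1bCKO replicate 1, against -0.12 and -0.095 in Ppm1bfl/fl. Among 3787 genes longer than 6000 bases it was -0.18 in Ppm1bCKO replicate 2 and 0.062 in replicate 1, against 0.077 and 0.050 in Ppm1bfl/fl. The globin genes, of 667 to 812 exonic bases, deviated by 0.54 to 0.71 in Ppm1bCKO replicate 2, and Slc4a1, of 4891 bases, by -0.47. After the trend with length was removed from each library, a step chosen after the data were seen, the log2 fold change was 0.36 ± 0.28 for Hbb-bs, 0.38 ± 0.27 for Hba-a1, -0.07 ± 0.29 for Alas2 and -0.35 ± 0.35 for Slc4a1. Globin was then 42.1 and 78.7 times Slc4a1 in the libraries labelled Ppm1bCKO, against 36.9 and 33.5 times in Ppm1bfl/fl. The near absence of Y-linked counts and the high B cell markers mark the same library, and their part in these values was not tested.

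**Figure D2:**
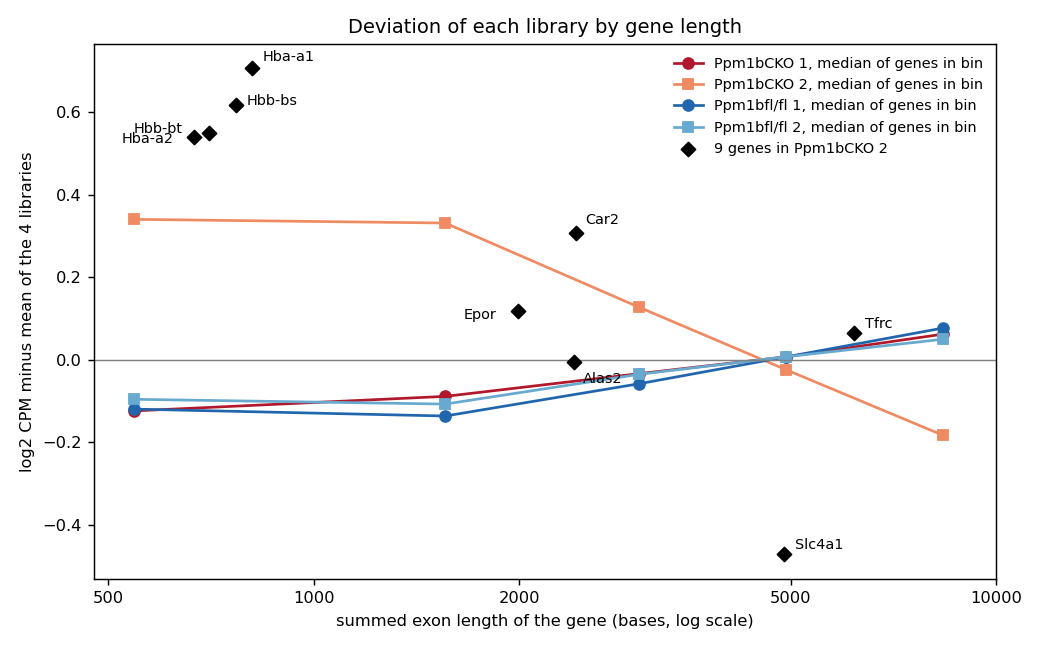
Lines show, for each library, the median deviation of log2 CPM from a gene's 4-library mean (vertical axis) against exonic length (horizontal axis, log scale) for the tested genes that averaged 1 or more in log2 CPM, in 5 length bins, and diamonds show the 9 genes in Ppm1bCKO replicate 2. In that library short genes lay above and long genes below the others, the globin genes lay above its line by length and Slc4a1 lay below it.

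The receptor, uptake and enzyme genes overlapped between genotypes. Epor (chromosome 9, 21958897 to 21963506, minus strand), the erythropoietin receptor gene, stood at 69.0 and 84.9 CPM in the Ppm1bCKO-labelled libraries, against 70.6 and 90.8 CPM in Ppm1bfl/fl (log2 fold change -0.07 ± 0.19, edgeR adjusted p = 0.922). Its highest library was 1.32 times its lowest, the narrowest range of the 9 genes. Tfrc (chromosome 16, 32608920 to 32632794, plus strand) encodes transferrin receptor 1, which brings iron into erythroblasts and into other dividing cells. It stood at 491 and 527 CPM in the Ppm1bCKO-labelled libraries, against 375 and 666 CPM in Ppm1bfl/fl (-0.03 ± 0.26, edgeR adjusted p = 0.977), so that the Ppm1bfl/fl libraries again enclosed both others. Car2 (chromosome 3, 14886273 to 14900770, plus strand) encodes carbonic anhydrase II, an enzyme of red cells and also of osteoclasts. It stood at 1579 and 2055 CPM in the Ppm1bCKO-labelled libraries, against 1220 and 1922 CPM in Ppm1bfl/fl (0.21 ± 0.27, edgeR adjusted p = 0.814), in the order of libraries that the globin genes had. Osteoclast markers, of which 4 of 7 could be tested and 1 had no counts in any library, summed to 217 and 199.8 CPM in the Ppm1bCKO-labelled libraries, against 244 and 236 CPM in Ppm1bfl/fl. Most of that was Mmp9, which neutrophils also express, at 142 to 187 CPM. Acp5 ran from 46.8 to 55.3 CPM and Ctsk from 1.89 to 5.11 CPM, and the part of these markers in the Car2 values was not tested.

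Over the 9 genes, edgeR called 0 at an adjusted p under 0.05, where 0.372% of all tested genes were called, 0.061% as higher and 0.311% as lower in Ppm1bCKO. At an unadjusted p under 0.05 edgeR counted 0 of the 9, where 6.44% of all tested genes were counted. DESeq2 called 0 of the 9 (1.21% of all tested genes) and counted 2 at an unadjusted p under 0.05 (5.92% of all). By limma-voom 0 of the 9 were called (0.305% of all tested genes) and 0 had an unadjusted p under 0.05 (6.61% of all). The libraries of the genotypes overlapped for all 9 genes, so 0 of 9 were separate, where 41.1% of all tested genes were. Of the 9 log2 fold changes 6 were positive, with a median of 0.21, where the median over all tested genes was -0.0032. Without Ppm1bCKO replicate 2 the median was 0.039, and without Ppm1bfl/fl replicate 1 it was -0.085. Without Ppm1bCKO replicate 1, Hba-a2 was called (0.72, edgeR adjusted p = 0.0338), in a fit that called 19.4% of its genes and in which replicate 2 alone stood for the genotype and was assumed to vary as the Ppm1bfl/fl pair did.

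**Figure D3:**
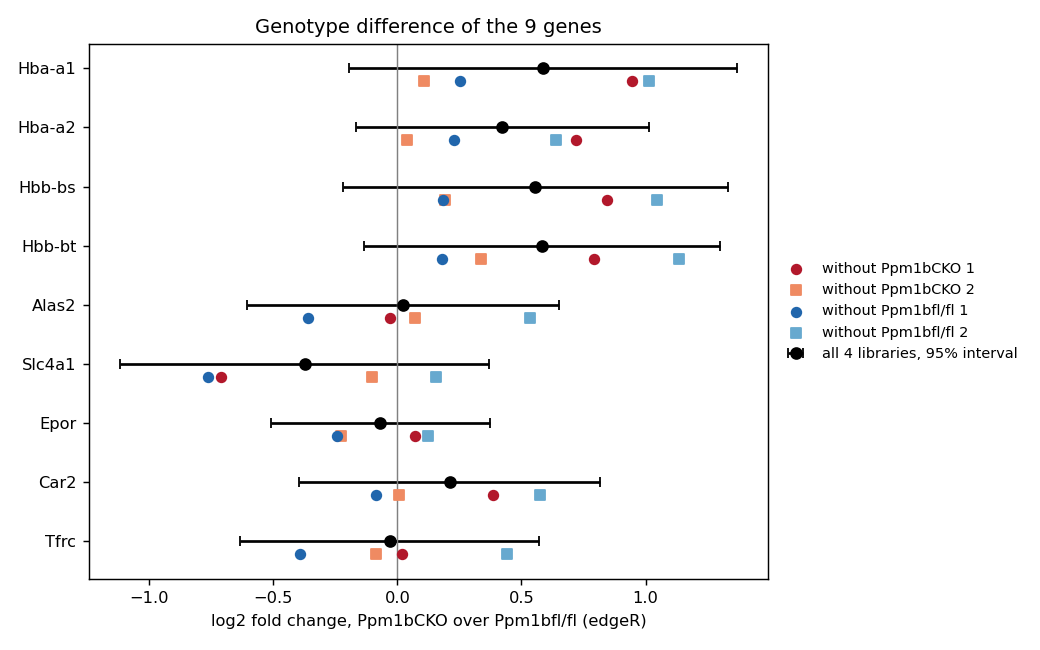
Black points show the log2 fold change of each gene, Ppm1bCKO over Ppm1bfl/fl, with its 95% interval from edgeR, and coloured points show the value with the named library left out. Every interval includes 0, and for Alas2, Slc4a1, Epor, Car2 and Tfrc the sign depends on which library is left out.

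Levels can be set between genes only per length. For the globin genes they also depend on how reads shared by copies were treated, which is not stated. In RPKM averaged over the 4 libraries, Hbb-bs (6298 RPKM) had rank 2 among the 16393 tested genes and Hba-a1 (3682 RPKM) rank 4. Hbb-bt (1274 RPKM), Hba-a2 (796 RPKM) and Car2 (699 RPKM) had ranks 17, 37 and 44. Slc4a1 (266 RPKM) and Alas2 (203 RPKM) had ranks 169 and 220, Tfrc (83.2 RPKM) rank 637 and Epor (39.6 RPKM) rank 1484. Neighbours in this order overlapped in their range over libraries for Hbb-bs and Hba-a1, for Hbb-bt and Hba-a2, for Hba-a2 and Car2, and for Slc4a1 and Alas2. Within every library, though, Hbb-bs lay above Hba-a1 and Hbb-bt above Hba-a2. The order of Hba-a2 and Car2, and that of Slc4a1 and Alas2, changed between libraries.

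For the 9 genes, the highest and lowest libraries did not divide by genotype. Ppm1bfl/fl replicate 1 was lowest for 7 of the 9 genes, and Ppm1bfl/fl replicate 2 was highest for 4 and Ppm1bCKO replicate 2 for 5. The same pair of Ppm1bfl/fl libraries marked the ends of the wider pathway. Among 85 tested genes of 7 lists of other erythroid genes, Ppm1bfl/fl replicate 1 was lowest for 45 and Ppm1bfl/fl replicate 2 highest for 45, where over all 16393 tested genes these counts were 4076 and 3472. Markers of stem cells and megakaryocytes lay the other way round between these libraries. Of 10 Lsk and stem cell markers, 9 were highest in Ppm1bfl/fl replicate 1, and of 8 megakaryocyte and platelet markers 7 were highest there and 7 lowest in Ppm1bfl/fl replicate 2. The megakaryocyte markers summed to 415 and 494 CPM in the Ppm1bCKO-labelled libraries, against 752 and 268 CPM in Ppm1bfl/fl. The Lsk markers summed to 462 and 370 CPM in the Ppm1bCKO-labelled libraries, against 564 and 440 CPM in Ppm1bfl/fl, and no marker of either list was at 0. Macrophage and B cell markers were lower in Ppm1bfl/fl replicate 1 than in replicate 2 by their median deviation (0.26 against 0.42, and -0.72 against -0.55), as the erythroid genes were, and neutrophil markers lay close together (-0.091 and -0.085). Plasma cell markers were higher in Ppm1bfl/fl replicate 1 than in replicate 2 (0.65 against 0.043). They summed to 2388 and 2883 CPM in the Ppm1bCKO-labelled libraries, against 13085 and 7902 CPM in Ppm1bfl/fl. Most of each sum was Igha, at 1628 and 1868 CPM in the Ppm1bCKO-labelled libraries, against 10296 and 6227 CPM in Ppm1bfl/fl. Of the 8 plasma cell markers 7 had a negative log2 fold change. Xbp1, of the same list, overlapped between genotypes, at 171 and 215 CPM against 206 and 185 CPM. The part of these markers in the erythroid values was not tested.

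**Figure D4:**
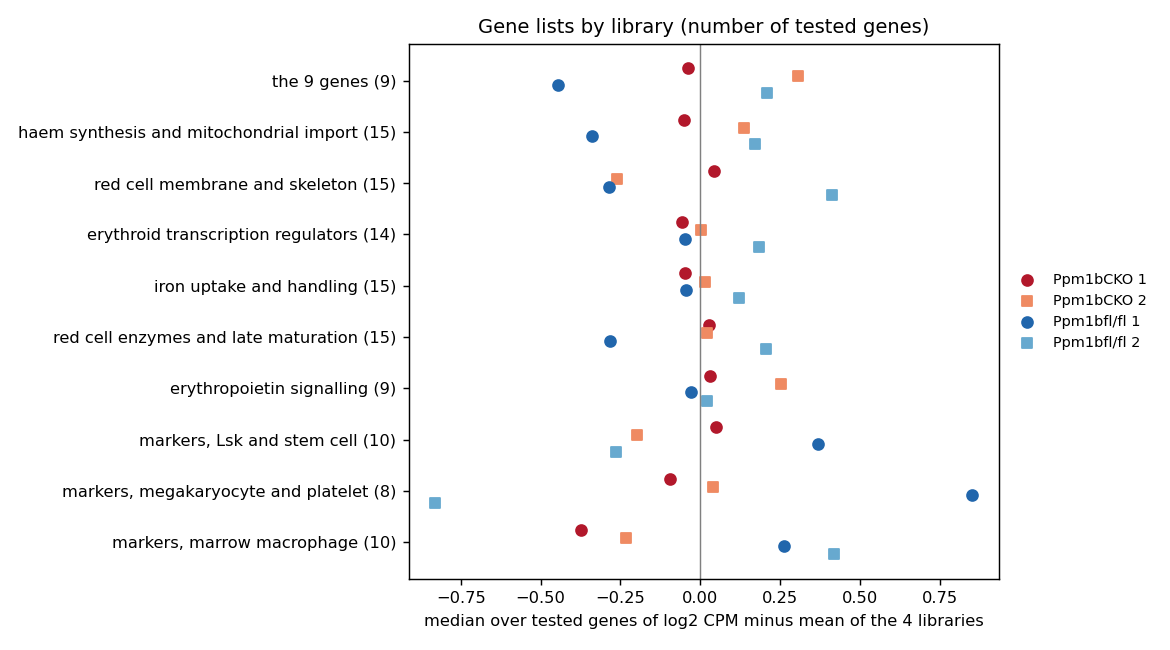
Each point shows, for a gene list (rows, with the number of tested genes) and a library, the median of log2 CPM minus the gene's mean over the 4 libraries. The Ppm1bfl/fl libraries lie at or near opposite ends for the 9 genes, for haem synthesis and for the red cell membrane, and in the reverse order for Lsk and megakaryocyte markers.

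No gene of the wider pathway was called by edgeR. The log2 fold change was positive for 38 of the 85 tested genes and negative for 47, and its median was -0.02. Alox15, Slc40a1 and Cish, 3 of the 85, had an unadjusted p under 0.05, as had 6.44% of all tested genes. DESeq2 called 1 of the 85, where it called 1.21% of all tested genes, and limma-voom called 0, where it called 0.305%. Genotypes were separate for 14 of the 85, against 41.1% of all tested genes.

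Haem synthesis and mitochondrial import genes had 10 of 15 positive log2 fold changes, a median of 0.04 and 0 called. Tmem14c, which moves porphyrin precursors within mitochondria, stood at 154 and 231 CPM in the Ppm1bCKO-labelled libraries, against 129 and 165 CPM in Ppm1bfl/fl. Its log2 fold change was 0.39 ± 0.23, and that of Glrx5, which serves iron-sulphur cluster assembly, was 0.37 ± 0.28 (edgeR adjusted p = 0.717 and 0.732). Both were called without Ppm1bCKO replicate 1 (0.65 and 0.74, edgeR adjusted p = 0.0194 and 0.0238), in the fit with 1 library in that arm that called 19.4% of its genes. Without Ppm1bCKO replicate 2 they stood at 0.068 and -0.14.

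Red cell membrane and skeleton genes had 4 of 15 positive log2 fold changes, a median of -0.23 and 0 called, and their median length of 5297 bases was the longest of the erythroid lists. Ppm1bfl/fl replicate 2 was highest for 14 of the 15, while Ppm1bfl/fl replicate 1 was lowest for 8 and Ppm1bCKO replicate 2 for 7. Sptb, which encodes the β-spectrin of the skeleton, stood at 407 and 252 CPM in the Ppm1bCKO-labelled libraries, against 355 and 584 CPM in Ppm1bfl/fl (-0.51 ± 0.29, edgeR adjusted p = 0.717). Ank1, which links spectrin to band 3, had the same order of libraries (-0.50 ± 0.30, edgeR adjusted p = 0.717). Its log2 fold change was -0.18 without Ppm1bCKO replicate 2 and -0.33 with the length trend removed. Ermap, an erythroblast membrane protein gene, and Aqp1, a water channel gene, had log2 fold changes of -0.34 ± 0.23 and -0.23 ± 0.22. Icam4, an adhesion protein gene of erythroblasts, was listed at 0 counts in all 4 libraries.

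Erythroid transcription regulators had 4 of 14 positive log2 fold changes, a median of -0.05 and 0 called. Klf1, which activates β-globin through CACCC motifs, stood at 115 and 174 CPM in the Ppm1bCKO-labelled libraries, against 101 and 152 CPM in Ppm1bfl/fl (0.19 ± 0.26, edgeR adjusted p = 0.824). Zfpm1, the gene of the GATA1 partner FOG-1, stood at 250 and 226 CPM in the Ppm1bCKO-labelled libraries, against 263 and 349 CPM in Ppm1bfl/fl (-0.37 ± 0.19, edgeR adjusted p = 0.717). Its genotypes did not overlap. Sox6 and Gfi1b, which encode repressors active in erythroid cells, had log2 fold changes of -0.36 ± 0.26 and -0.23 ± 0.18, and Lmo2, an adaptor of the GATA1 complex, one of 0.02 ± 0.17.

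Iron uptake and handling genes had 6 of 15 positive log2 fold changes, a median of -0.03 and 0 called. Slc40a1, which encodes the iron exporter ferroportin, stood at 79.2 and 82.7 CPM in the Ppm1bCKO-labelled libraries, against 124.5 and 122 CPM in Ppm1bfl/fl (-0.61 ± 0.16, edgeR adjusted p = 0.366). The genotypes did not overlap and replicates lay close together. Ferroportin is also a gene of iron-recycling macrophages, and for all 10 macrophage markers the log2 fold change was below 0, with summed levels of 385 and 467 CPM in the Ppm1bCKO-labelled libraries, against 642 and 672 CPM in Ppm1bfl/fl, and none at 0. Their part in the Slc40a1 value was not tested. The ferritin genes Fth1 and Ftl1 had log2 fold changes of 0.24 ± 0.23 and 0.34 ± 0.24. Without Ppm1bCKO replicate 2 these were -0.026 and -0.059. Aco1, which encodes an iron-sensing protein that binds transferrin receptor mRNA, had one of -0.21 ± 0.16.

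Red cell enzyme and late maturation genes had 8 of 15 positive log2 fold changes, a median of 0.08 and 0 called. Alox15, a lipoxygenase gene of reticulocytes that eosinophils and macrophages also use, stood at 229 and 310 CPM in the Ppm1bCKO-labelled libraries, against 144 and 162 CPM in Ppm1bfl/fl. On the log2 scale the fold change came to 0.82 ± 0.19 (edgeR adjusted p = 0.277), and DESeq2 called it (0.82, adjusted p = 0.0175). The order of its libraries was not that of the globin genes, since both libraries labelled Ppm1bCKO lay above both others. Prdx2, an abundant antioxidant enzyme gene of red cells, stood at 417 and 598 CPM in the Ppm1bCKO-labelled libraries, against 326 and 456 CPM in Ppm1bfl/fl (0.38 ± 0.24, edgeR adjusted p = 0.721). Trim58, a ubiquitin ligase gene of late erythroblasts, stood at 17.7 and 8.85 CPM in the Ppm1bCKO-labelled libraries, against 17.9 and 23.9 CPM in Ppm1bfl/fl (-0.65 ± 0.33, edgeR adjusted p = 0.717). Gpx1 and Car1, the most abundant of the list per length, had log2 fold changes of 0.18 ± 0.23 and -0.10 ± 0.19.

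Erythropoietin signalling genes had 6 of 9 positive log2 fold changes, a median of 0.13 and 0 called. Cish, a feedback inhibitor gene that STAT5 induces, stood at 12.2 and 10.4 CPM in the Ppm1bCKO-labelled libraries, against 6.95 and 6.50 CPM in Ppm1bfl/fl (0.75 ± 0.23, edgeR adjusted p = 0.590). Pim1, a kinase gene that STAT5 also induces, stood at 436 and 590 CPM in the Ppm1bCKO-labelled libraries, against 385 and 382 CPM in Ppm1bfl/fl (0.42 ± 0.20, edgeR adjusted p = 0.717). The genotypes did not overlap for either gene. Erfe, which encodes the erythroblast hormone erythroferrone, stood at 3.21 and 4.68 CPM in the Ppm1bCKO-labelled libraries, against 1.05 and 3.78 CPM in Ppm1bfl/fl (0.70 ± 0.53, edgeR adjusted p = 0.731). Jak2, the kinase gene of the erythropoietin receptor, had a log2 fold change of -0.09 ± 0.18.

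The genes most like the adult globin genes over the 4 libraries were ranked by the root mean square distance between centred log2 CPM profiles, among the 12368 genes that averaged 1 or more in log2 CPM. The mean globin profile was -0.05 and 0.60 in the libraries labelled Ppm1bCKO, against -0.65 and 0.10 in Ppm1bfl/fl. Among the 10 nearest genes outside the lists were Cldn13, Ube2l6, Lst1, Col27a1, Snora41, Spc25, Pla2g16, Rps2-ps10 and Scd1, at distances of 0.077 to 0.13. Cldn13 stood at 68.7 and 108 CPM in the Ppm1bCKO-labelled libraries, against 51.8 and 80.4 CPM in Ppm1bfl/fl. Of the erythroid genes, Prdx2 had rank 24, Tmem14c rank 61 and Car2 rank 140. With 4 libraries and so many genes this is a description of these libraries only.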

How the data were processed

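The submitters' processing notes name build mm10 and 3 tools. These are featureCounts 2.0.1, HISAT2 2.2.0 and Trim Galore 0.6.7. Per the labels' protocols, TRIzol RNA and a TruSeq RNA kit were used. The deposited table held raw counts per gene in 4 libraries, while the strand setting and the treatment of multi-mapping reads stay unstated in the labels. RPKM was computed here from the counts and the gene lengths in that table.

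Of 55399 identifiers, 55139 matched GENCODE symbols. The 107 rarer of identifiers sharing a symbol were named by identifier, which touched none of the 9 genes. Counts were tested with edgeR 4.0.16 (R 4.3.3; TMM, genes kept by filterByExpr at min.count 10 and min.total.count 15, quasi-likelihood with robust estimation), with genotype as the only term and Benjamini-Hochberg adjustment over 16393 genes at 0.05. The fit was also run on simulated counts with known changes. These held no length trend, Y-linked difference or shift in cell markers of a library, so they cannot vouch for the fit where those occur. Replicates differed beyond sampling noise (chi-square per degree of freedom 53.5 in Ppm1bCKO and 25.5 in Ppm1bfl/fl). Alternatives were DESeq2 1.42.0, its size factors, limma-voom 3.58.1, total counts, other count filters, a replicate block, left-out libraries, immunoglobulin genes left out and globin copies summed. Removal of each library's length trend (lowess span 0.3) and leaving adult globin out of library sizes were added after the data were seen. At these depths a count of 0 allows 0.0995 to 0.132 CPM, and this limit and the Wilson intervals cover counting error only, while edgeR's intervals also cover the spread between libraries.

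The 9 genes, the lists and the rule for named genes (the 9 genes, up to 3 genes per list by smallest p, up to 2 by level per length, and the 10 nearest by profile) were chosen with earlier results of these data known. Icam4, Ngp, the osteoclast markers and the untested globin genes were named after their values were seen. Some genes that this rule names are not reported here.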

Additional observations from a re-analysis of the deposited data

How the results depend on the processing

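Over all tested genes, 61 were called, and the count was 199 by DESeq2, 311 with no low-count filter and 0 with immunoglobulin genes left out (989 at an unadjusted p under 0.05). It ran from 94 to 3336 with a library left out, highest without Ppm1bCKO replicate 1. The number called of the 9 genes was 0 under every alternative except without Ppm1bCKO replicate 1 (range with a library left out 0 to 1). Of the 85 other pathway genes, 1 was called by DESeq2, by the fit with no low-count filter and with the replicate block, Alox15 in each, and 0 to 9 with a library left out. The labels do not say that replicate numbers pair libraries, and log2 differences between replicates correlated with r = 0.094 across 12368 genes between genotypes. With the replicate number as a block, 207 genes were called over all tested genes.

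The median log2 fold change of the 9 genes was 0.10 with the length trend removed, and -0.085 to 0.57 with a library left out. With globin copies summed, each pair stood as a single gene, so the median of 0.022 was not over the 9 genes. It was the value of Alas2 in that fit. The difference in globin share, 0.323 percentage points, ran from 0.0994 to 0.546 with a library left out. Signs turned, always far from the threshold, for Alas2 with total counts (-0.013) and with the length trend removed (-0.073), and for Tfrc by limma-voom (0.028), with the replicate block (0.026) and with the length trend removed (0.037). They also turned for Lmo2 with total counts (-0.020), and with the length trend removed for Lmo2 (-0.10), Klf1 (-0.0037) and Gpx1 (-0.010). With a library left out, the log2 fold change also crossed 0 for several named genes, with ranges of -0.36 to 0.53 for Alas2, -0.76 to 0.15 for Slc4a1, -0.24 to 0.12 for Epor, -0.085 to 0.57 for Car2, -0.39 to 0.44 for Tfrc and -0.64 to 0.28 for Hbq1b. The ranges were -1.001 to 0.49 for Hbq1a, -0.14 to 0.74 for Glrx5, -0.47 to 0.041 for Aqp1 and -0.073 to 0.11 for Lmo2. They were -0.14 to 0.52 for Klf1, -0.059 to 0.65 for Ftl1, -0.026 to 0.46 for Fth1, -0.085 to 0.41 for Gpx1, -0.23 to 0.038 for Car1 and -0.31 to 0.097 for Jak2. The 4 adult globin genes stayed above 0 in each of these fits. The cause was not tested.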
